A study of Mus musculus with 6 samples.

Results

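The genes described are 10 core genes of the PAR and Scribble cell polarity modules, chosen by name from the 24972 gene symbols of the RNA-Seq table: Pard3, Pard3b, Pard6a, Pard6b, Pard6g, Prkci, Prkcz, Cdc42, Scrib and Dlg1. All 10 were in the table, and all 10 were among the 14456 genes with enough signal to be tested. The genes were picked by name, with no threshold on a measured value. The RNA came from isolated lung endothelial cells (iLECs) of 3 control and 3 Atp6ap2iECKO samples at postnatal day (P) 7, with 1 library per sample. iLECs are the cells that magnetic beads coated with an antibody against CD31 pull from digested lung, so other cells that stick to the beads can be carried along. All samples received 100 μg tamoxifen on each day from P1 to P3 and carried the floxed Atp6ap2 allele, which the labels write as fl/Y. Atp6ap2iECKO samples also carried Cdh5-CreERT2, a tamoxifen-inducible Cre recombinase under the promoter of the endothelial gene Cdh5, and the control samples had no Cre. Thus, Cre itself and the loss of Atp6ap2 cannot be told apart here. The labels give the strain as C57BL/6, while the study's methods describe a mixed CD1 and C57BL/6 background.

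Cells build a front and a rear, or an apical and a basal side, with a small set of conserved proteins. In the PAR module, the scaffolds PAR-3 and PAR-6 hold atypical protein kinase C (aPKC) at one part of the cortex, and the GTPase CDC42 binds PAR-6 and switches the kinase on. The Scribble module, made of SCRIB, DLG and LGL proteins, occupies the other side of the cell, and the modules exclude each other through phosphorylation. In ECs, these proteins position the Golgi and the cell axis during migration and help to organize the junctions and the lumen. The comparison asks whether RNA of these genes differed in ECs that had lost ATP6AP2, a receptor for prorenin and an accessory protein of the vacuolar ATPase.

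None of the 10 genes passed the test between genotypes. The value given throughout is the deposited normalized count. Scrib was 22.3% higher and Pard3 17.9% lower in Atp6ap2iECKO iLECs, and neither passed an adjusted P value of 0.05. Cdc42, the most abundant of the 10, had nearly the same level in both genotypes. Pard6b and Prkcz were far higher in control 3 than in the other libraries, as were most epithelial markers.

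Several properties of the libraries bear on these values. Totals of normalized counts were between 26243878 and 28725799, and depth relative to the shallowest library, judged by the size of the steps between low values, was 1.00 to 1.04 in the control libraries and 1.25 to 1.55 in the Atp6ap2iECKO libraries. Atp6ap2 itself (chrX:12587801-12617049) was at 7490, 5815 and 5681 in the control libraries and at 4220, 2336 and 1982 in the Atp6ap2iECKO libraries, a log2 fold change of -1.22 ± 0.26 (SE, limma adjusted P = 0.0306). The genotypes did not overlap, with an exact permutation P of 0.1, the smallest that 3 against 3 samples allow. The adjusted P was between 0.0628 and 0.104 when control 1, 2 or 3, or Atp6ap2iECKO 2 or 3, was left out, and 0.00595 without Atp6ap2iECKO 1, the library with the most Atp6ap2 of its genotype. The labels give all 6 samples a Y chromosome, but Xist, the RNA of the inactive X chromosome, was at 37704 and 44402 in controls 1 and 2 and at 39442 and 47487 in Atp6ap2iECKO 1 and 3. It was at 31.7 in control 3 and 19.3 in Atp6ap2iECKO 2, the libraries in which the Y-linked gene Ddx3y was at 4554 and 4656. Ddx3y was at 173 in control 1 and between 0 and 11.3 in the others. Thus, 4 of 6 libraries went against the fl/Y label, and the study's methods state that neonates of both sexes were used. With Xist as a covariate, 0 of the 10 genes and 767 of all tested genes were called. With only the 4 libraries of high Xist, 1 of all tested genes was called, so the lack of a call among the 10 says nothing there, and their changes were 0.32 for Scrib, -0.36 for Pard3 and -0.24 for Dlg1 on the log2 scale.

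All 20 endothelial markers were detected in every library, with summed levels of 500281 to 657069 in the control and 471957 to 575354 in the Atp6ap2iECKO libraries. Markers of other cells were also present. The sum of the fibroblast markers was 92713 to 144085 in the control and 32518 to 46222 in the Atp6ap2iECKO libraries, and 12 of 15 tested were called lower. For mural cells (pericytes and smooth muscle), the sums were 14524 to 22067 and 5969 to 7612, with 9 of 15 called lower. Over all tested genes, 4.97% were called lower. Of the 20 endothelial markers, 1 was called lower, and of 20 epithelial markers, 0 were called lower and 1 higher. The leukocyte sums overlapped, at 6788 to 12382 and 5274 to 16534. In such bulk samples, fewer cells of a type and less RNA per cell cannot be told apart.

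The genes that stood apart in control 3, Pard6b and Prkcz, are shown here by the 250 bases before their transcription starts. Both were at least 1.5 times as high in that library as in the mean of controls 1 and 2. Prkci was also highest in control 3, but at only 1.10 times that mean. The sequences are from RefSeq for GRCm38.p6 and are written 5′ to 3′ on the gene's strand. Windows of 8 of the 10 genes were used, with the chromosome of Pard6g left out and no window for Scrib. The window of Pard6b is chr2:168080754-168081003 on the plus strand, and that of Prkcz, for the outermost of its annotated starts, is chr4:155361429-155361678 on the minus strand. Capitals mark GC boxes, that is GGGCGG or its reverse complement.
Pard6b: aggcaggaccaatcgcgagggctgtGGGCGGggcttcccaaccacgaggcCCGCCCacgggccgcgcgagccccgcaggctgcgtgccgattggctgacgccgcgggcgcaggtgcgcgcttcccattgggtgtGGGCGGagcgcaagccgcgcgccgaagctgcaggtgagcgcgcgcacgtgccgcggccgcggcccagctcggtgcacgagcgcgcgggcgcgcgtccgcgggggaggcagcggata
Prkcz: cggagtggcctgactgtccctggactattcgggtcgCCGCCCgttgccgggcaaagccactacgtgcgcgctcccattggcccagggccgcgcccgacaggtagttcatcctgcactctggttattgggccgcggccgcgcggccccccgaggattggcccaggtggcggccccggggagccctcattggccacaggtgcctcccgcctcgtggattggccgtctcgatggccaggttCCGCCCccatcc
Both windows are rich in GC, at 77.6% for Pard6b and 70.8% for Prkcz, against a median of 52.4% over 32851 promoter windows of the same length. They held 43 and 25 CpG dinucleotides, and the median window held 6. This was not particular to the pair: a window of Pard3 had 79.2% GC and 34 CpG dinucleotides, and one of Dlg1 had 68.8% GC and 20. The windows of the other annotated starts of Prkcz had 58.0% and 56.8% GC, with 7 and 10 CpG dinucleotides. Pard6b had 3 GC boxes and Prkcz had 2, a motif found on either strand in 32.7% of all windows. GC boxes were also in a window of Cdc42 and of Pard6a (2 each) and of Prkci, Pard3 and Dlg1 (1 each), while Pard3b had 0. The E-box CANNTG occurred at 3 positions for Pard6b and 2 for Prkcz, and 66.2% of all windows held at least 1. The motif AACCGG, a core of the site of the epithelial grainyhead-like factors, was in neither window and in 5.62% of all windows. It occurred at 1 position each in a window of Pard3b and a window of Pard6a. These matches describe the letters of the windows and are not measured binding sites.

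Levels of different genes were compared per kb of annotated exon, on a linear scale. Cdc42 stood far above the rest, at 4623 ± 326 normalized counts per kb in control iLECs (SD, n = 3). Next came Pard6g at 673 ± 97.7, followed by Prkci at 390 ± 22.4, Dlg1 at 365 ± 26.0 and Scrib at 342 ± 13.7. Lower still were Pard6b at 177 ± 116, Pard3 at 170 ± 12.7 and Pard3b at 135 ± 34.8. The least abundant were Pard6a at 70.1 ± 6.92 and Prkcz at 31.3 ± 15.6. Ranges of the control libraries overlapped between Prkci and Dlg1, between Dlg1 and Scrib, between Pard6b and Pard3, and between Pard3 and Pard3b, so these neighbours were not separated. With the longest transcript as the length, Cdc42 and Pard6g stayed at the top and Pard6a and Prkcz at the bottom, while the order between them changed. In Atp6ap2iECKO iLECs, Scrib came before Prkci and Dlg1, and the other ranks were as in the control.

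**Figure D1:**
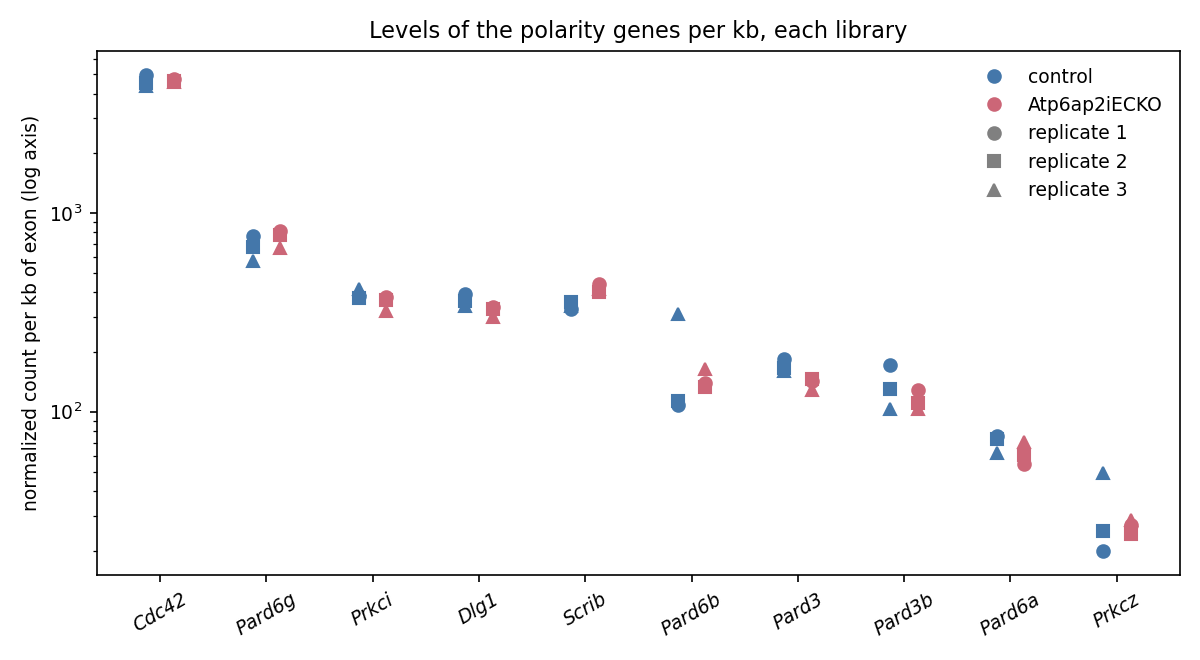
Normalized count per kb of exon (log axis) of each polarity gene, with 1 point per library and the genotypes in separate colours. Cdc42 averages 4623 in the control and 4632 in the Atp6ap2iECKO libraries, and Prkcz lies lowest, with control 3 above the other libraries.

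Where the module has several paralogs, the shares per kb show which one made up most of the RNA in the iLEC samples, carried-along cells included. Pard6g made up 73.3 ± 11.02% of PAR-6 RNA in control and 78.3 ± 3.74% in Atp6ap2iECKO iLECs (SD, n = 3, exact permutation P = 0.7). Pard6b made up 19.1 ± 11.9% and 15.2 ± 2.60% (exact permutation P = 1), and Pard6a 7.64 ± 0.975% and 6.49 ± 1.20% (exact permutation P = 0.2). In control 3, the share of Pard6b was 32.8%, against 11.3% and 13.1% in controls 1 and 2. Prkci made up 92.7 ± 2.93% of aPKC RNA in control and 93.0 ± 0.964% in Atp6ap2iECKO iLECs (exact permutation P = 0.9). Pard3 and Pard3b were closer to each other, with Pard3 at 56.1 ± 4.60% and 55.0 ± 2.09% of their sum (exact permutation P = 0.8). The last share depended on the length used, since the longest transcripts put Pard3 at 66.5% over all libraries.

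Across the 10 genes, 0 passed an adjusted P value of 0.05 in limma, while 8.25% of all tested genes did (3.28% higher and 4.97% lower in Atp6ap2iECKO iLECs). At an unadjusted P value below 0.05 there were 2 of 10, Pard3 and Scrib, and 23.9% of all tested genes. Groups did not overlap for 3 of 10, Pard3, Dlg1 and Scrib, and for 29.8% of all tested genes. With only 10 genes, these shares are too coarse to be set apart from those of all tested genes. By sign alone, 7 genes were lower and 3 higher, beside 7133 lower and 7323 higher of all tested genes, and the median log2 fold change was -0.13 beside 0.00. P values measure the spread between samples, and no source used here says whether 1 sample was 1 animal or a pool.

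**Figure D2:**
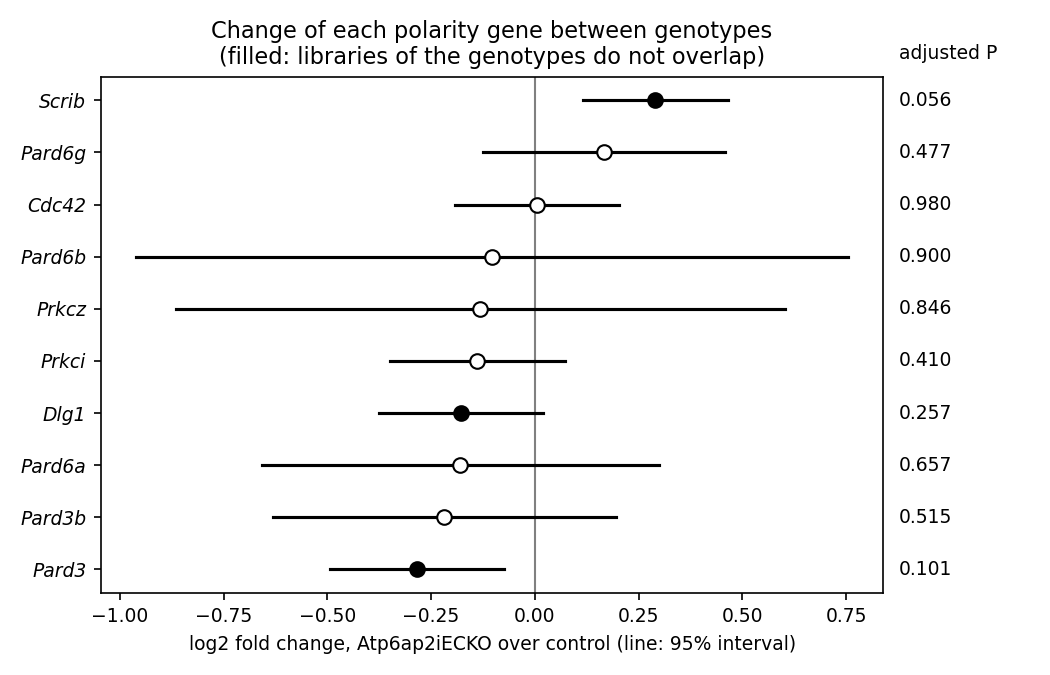
Log2 fold change of each polarity gene, Atp6ap2iECKO over control, with its 95% confidence interval as a line and the adjusted P value at the right. Filled points mark Pard3, Dlg1 and Scrib, whose libraries do not overlap between genotypes, and the intervals of Pard6b and Prkcz are the widest.

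PAR-3 is the scaffold that recruits the other PAR proteins to the membrane and binds junctional adhesion molecules. Pard3 (chr8:127063893-127612286, 28 annotated transcripts) was at 2675, 2397 and 2325 in the control libraries and at 2075, 2129 and 1866 in the Atp6ap2iECKO libraries. Every Atp6ap2iECKO library was below every control library. The log2 fold change was -0.28 ± 0.09 (SE), with a 95% confidence interval of -0.49 to -0.08 and a limma adjusted P of 0.101 (unadjusted 0.0139). It was negative in each alternative run, between -0.36 and -0.22, and the adjusted P was between 0.0729 and 0.317. The table holds 1 value for the gene, so a shift between its transcripts would not be seen.

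Pard3b encodes a PAR-3 relative that lacks aPKC binding. The gene (chr1:61638824-62642284) had 2265, 1718 and 1354 in the control and 1683, 1462 and 1360 in the Atp6ap2iECKO libraries. Control 1 was the highest and control 3 the lowest of the 6, so the genotypes overlapped. Its log2 fold change was -0.22, with a 95% confidence interval of -0.63 to 0.20 (limma adjusted P = 0.515). It was -0.028 without control 1 and -0.40 without control 3, so these libraries set its size. Its exons share 583 bases with the antisense gene Pard3bos1, whose reads a library without strand information cannot separate. The 3 genes with the pattern most like Pard3 over the 6 libraries, on the log2 scale, were Cadps2 (Pearson r = 0.995), Tiparp (r = 0.994) and Paip2 (r = 0.992). They were picked as the highest r of all tested genes, over libraries of both genotypes, so these values are a description without a test. Tiparp was called lower in Atp6ap2iECKO iLECs (limma adjusted P = 0.0445), while Cadps2 (0.0720) and Paip2 (0.161) were not called.

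PAR-6 proteins are adaptors that link CDC42 to aPKC. Pard6g, the main PAR-6 gene in iLECs, was at 2423, 2127 and 1808 in the control and 2563, 2452 and 2098 in the Atp6ap2iECKO libraries. The groups overlapped, and the log2 fold change was 0.17, with a 95% confidence interval of -0.12 to 0.46 (limma adjusted P = 0.477). Pard6a (chr8:105701148-105703496) was scarce, at 119, 115 and 98.4 against 86.8, 96.0 and 111. Its log2 fold change was -0.18, with an interval of -0.66 to 0.30 (limma adjusted P = 0.657). Pard6b (chr2:168081004-168101203) was at 366, 384 and 1056 in the control and 473, 453 and 559 in the Atp6ap2iECKO libraries. Thus, 1 control library was above and the others were below all Atp6ap2iECKO libraries. The log2 fold change was -0.10 with an interval of -0.96 to 0.75 (limma adjusted P = 0.900). Without control 3 it was 0.39 (limma adjusted P = 0.185), so that library decided the sign.

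The aPKCs phosphorylate targets that must leave their side of the cell. Prkci, which encodes aPKC iota (lambda in mouse), was the main aPKC gene (chr3:30995747-31052959), at 2115, 2070 and 2305 in the control and 2097, 2019 and 1788 in the Atp6ap2iECKO libraries. The groups overlapped narrowly, and the log2 fold change was -0.14 with an interval of -0.35 to 0.07 (limma adjusted P = 0.410). Prkcz, which encodes aPKC zeta (chr4:155260129-155361361), was at 125, 159 and 310 against 171, 153 and 179. As for Pard6b, control 3 was the highest library. The log2 fold change was -0.13 with an interval of -0.86 to 0.60 (limma adjusted P = 0.846), and without control 3 it was 0.25 (limma adjusted P = 0.535).

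CDC42 is the GTPase that activates the PAR-6 and aPKC pair and shapes filopodia. Cdc42 (chr4:137319696-137357720) was at 14774, 13478 and 12881 in the control libraries and at 14027, 13679 and 13506 in the Atp6ap2iECKO libraries. The Atp6ap2iECKO libraries lay within the range of the control libraries. Its log2 fold change was 0.00, and the 95% confidence interval of the fold, from 0.875 to 1.15, bounds the difference that these libraries allow. The sign of this value turned when control 2, control 3 or Atp6ap2iECKO 1 was left out.

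SCRIB and DLG1 are the scaffolds of the Scribble module. Scrib (chr15:76047158-76069784) was at 2116, 2293 and 2208 in the control and at 2820, 2599 and 2671 in the Atp6ap2iECKO libraries. All Atp6ap2iECKO libraries were above all control libraries, and the unadjusted P value was the lowest of the 10 genes. The log2 fold change was 0.29 ± 0.08 (SE), with a 95% confidence interval of 0.11 to 0.46 and a limma adjusted P of 0.0564 (unadjusted 0.00509). With library totals as the scaling, it was 0.33 with a limma adjusted P of 0.0496, the only alternative setting of 17 that put it past 0.05. Dlg1 (chr16:31663443-31875129) was at 4202, 3894 and 3644 in the control and at 3625, 3512 and 3233 in the Atp6ap2iECKO libraries. The groups did not overlap but lay next to each other, and the log2 fold change was -0.18 with an interval of -0.38 to 0.02 (limma adjusted P = 0.257). The difference between the changes of Scrib and Dlg1 was not tested.

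**Figure D3:**
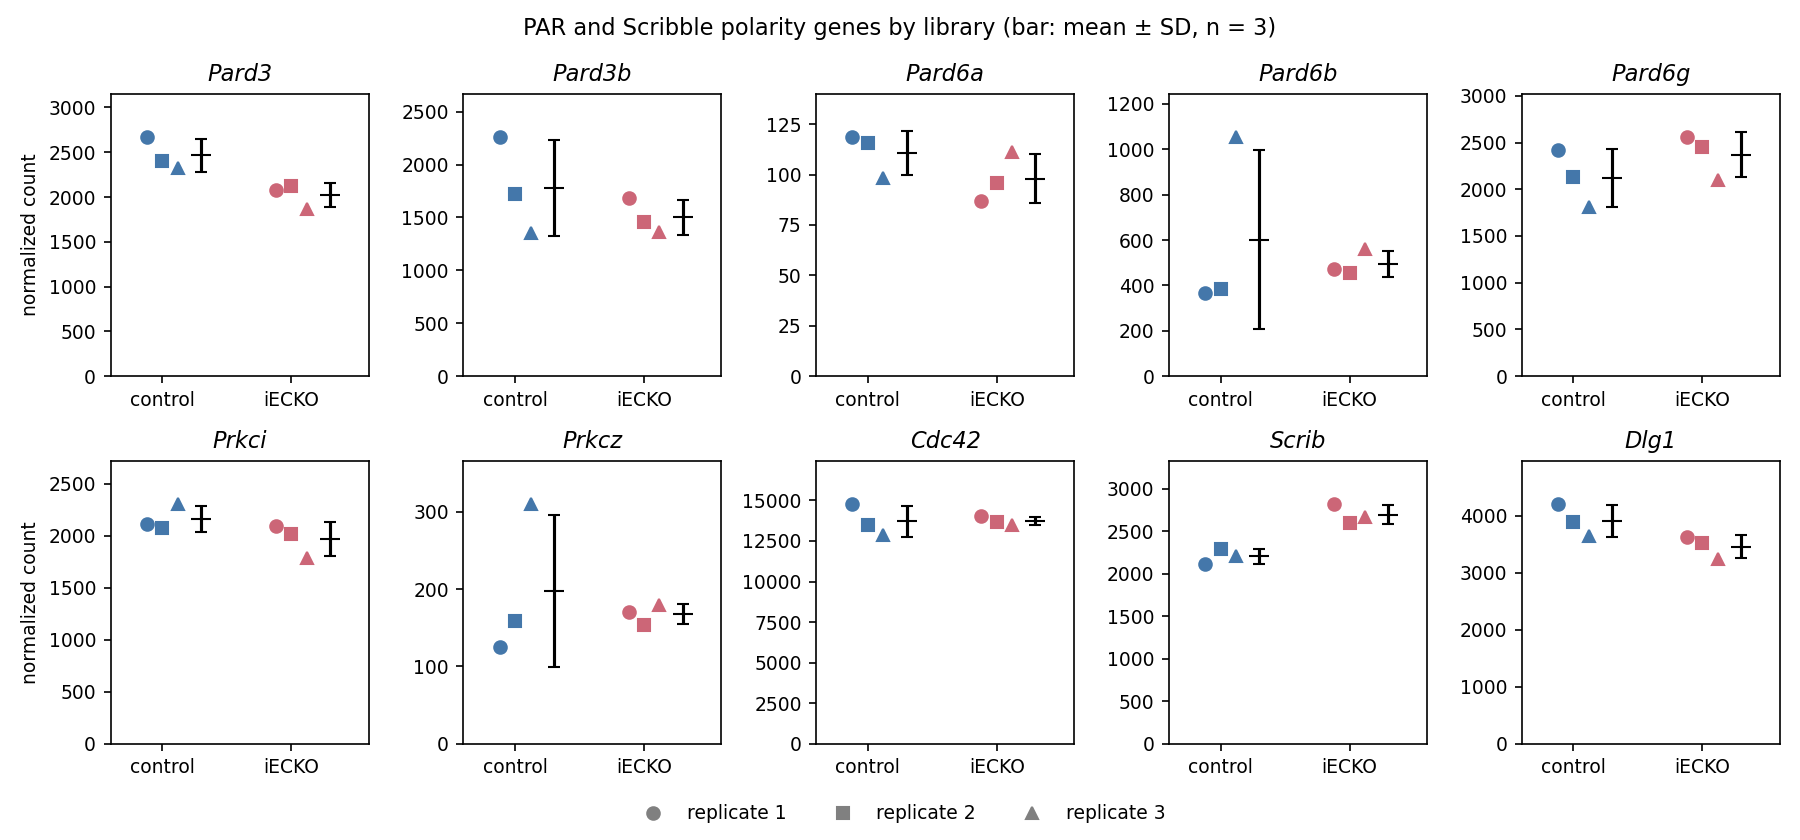
Normalized count of each polarity gene in each library, with a panel and a scale that starts at 0 for each gene and bars for the mean ± SD (n = 3). The genotypes are apart for Scrib, Pard3 and Dlg1, and control 3 stands alone for Pard6b at 1056 and for Prkcz at 310.

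Pard6b and Prkcz were 2.82 and 2.18 times as high in control 3 as in the mean of controls 1 and 2. Such a ratio of at least 1.5 was found for these 2 of the 10 genes (20.0%). It was found for 4 of 78 other polarity genes tested (5.13%) and for 7.44% of all tested genes, so the other polarity genes did not exceed the share of all tested genes. The other polarity genes, named here after their values were seen, were Crb3 (3.30), which encodes the apical determinant CRB3, Wwc1 (2.77), which encodes the aPKC-binding protein KIBRA, Llgl2 (2.59), an LGL gene of the Scribble module, and Patj (1.76), a scaffold gene of the Crumbs complex. The summed level of the 20 epithelial markers was 88344 in control 3, against 38642 and 35094 in controls 1 and 2 and 42735 to 50316 in the Atp6ap2iECKO libraries. Of the 20, 18 were highest in control 3, and none was at 0 in any library. Also highest in control 3 were 9 of 15 mural, 7 of 16 fibroblast, 1 of 18 leukocyte and 0 of 20 endothelial markers. The share over all tested genes was 19.7%. The epithelial sum in control 3 was 2.40 times the mean of controls 1 and 2, the mural sum 1.24 times and the fibroblast sum 1.08 times. Whether epithelial RNA had a part in the levels of Pard6b and Prkcz was not tested.

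**Figure D4:**
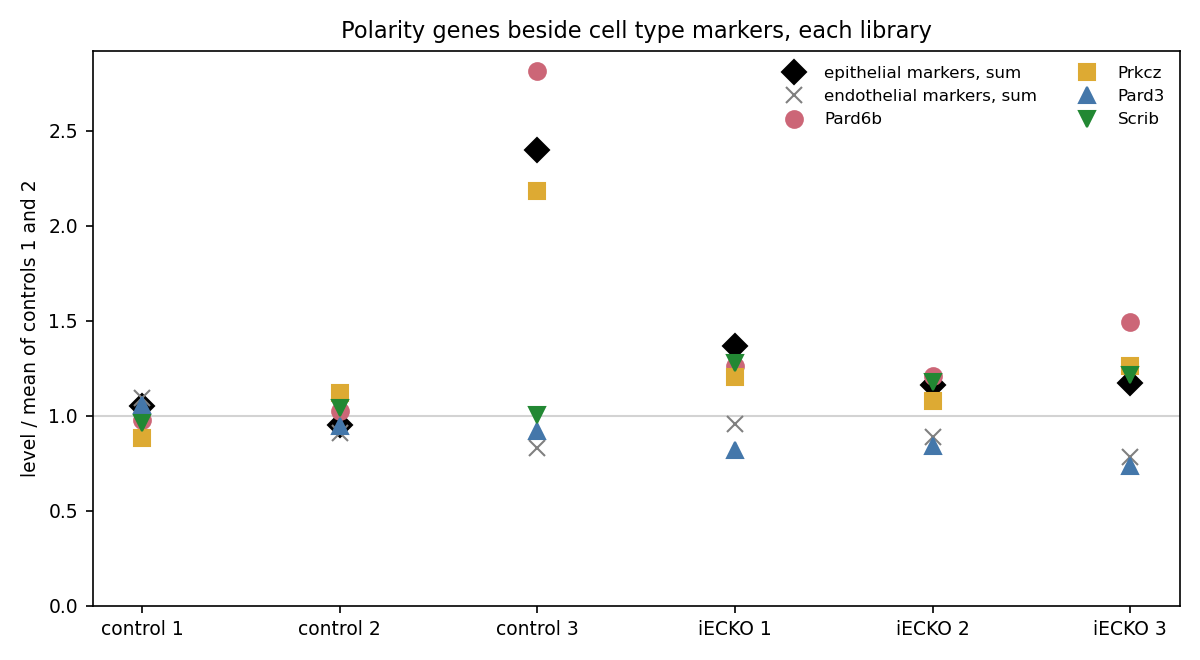
Levels of Pard6b, Prkcz, Pard3 and Scrib beside the summed epithelial and endothelial markers, each divided by its mean in controls 1 and 2, for each of the 6 libraries. In control 3, Pard6b (2.82), Prkcz (2.18) and the epithelial sum (2.40) lie well above 1 and above their values in the Atp6ap2iECKO libraries.

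Beyond the 10 genes, 85 other polarity genes were grouped by their roles, and 78 of them were tested. Of these, 4 were called lower and 0 higher at an adjusted P value of 0.05 (4.97% of all tested genes were called lower and 3.28% higher). The share called lower was thus close to that of all tested genes. The single lists below are too short for their counts to be set apart from that share. At an unadjusted P value below 0.05, 13 were lower and 3 higher, beside 1782 lower and 1671 higher of the 14456 genes tested. Groups did not overlap for 14 that were lower and 4 that were higher, beside 2172 and 2131 of all tested genes. The median log2 fold change was -0.08.

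Among genes of the PAR-1 and PAR-4 kinases and their partners, 1 of 9 was called lower, beside 4.97% of all tested genes. The PAR-1 kinases phosphorylate PAR-3 and help to set the basal side. Mark1, a PAR-1 kinase gene, was at 258, 503 and 558 in the control and at 92.0, 110 and 113 in the Atp6ap2iECKO libraries. Every Atp6ap2iECKO library was below every control library, and the log2 fold change was -1.98 ± 0.29 (SE, limma adjusted P = 0.0113). The call held in all 6 fits that left out a library and was lost with only the 4 libraries of high Xist, where the log2 fold change was -1.81 (limma adjusted P = 0.143). Within the control, Mark1 was lowest in control 1, as were the fibroblast and mural sums. Within Atp6ap2iECKO, Mark1 was lowest in Atp6ap2iECKO 1, where both sums were highest. The most abundant genes of the list were not called: Cab39, an activator of the PAR-4 kinase LKB1, had a log2 fold change of 0.07 and Mark3 of -0.10.

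Among partners of PAR-3 and aPKC, 2 of 15 were called lower, beside 4.97% of all tested genes. Tiam2, an exchange factor for the GTPase RAC1, was at 205, 297 and 278 in the control and 149, 121 and 121 in the Atp6ap2iECKO libraries (log2 fold change -0.98 ± 0.20, limma adjusted P = 0.0281). Amot, which encodes angiomotin, a regulator of EC migration that binds junctional polarity proteins, was at 1430, 1634 and 1359 against 1042, 1134 and 948 (log2 fold change -0.50 ± 0.11, limma adjusted P = 0.0320). Both genes were below the control range in every Atp6ap2iECKO library. The call of Amot was lost whenever any 1 library was left out, with a limma adjusted P between 0.0562 and 0.122, while its log2 fold change stayed between -0.56 and -0.42. That of Tiam2 was lost in 4 of 6 such fits, with a log2 fold change between -1.14 and -0.88 over the 6. In these fits, 204 to 989 of all tested genes were called. Cdh5, the VE-cadherin gene that PAR-3 associates with at EC junctions, had a log2 fold change of 0.07 (limma adjusted P = 0.853), and Amotl2 had -0.21 (limma adjusted P = 0.378).

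Of the CDC42 effectors and close relatives, 1 of 19 tested was called lower, beside 4.97% of all tested genes. Cdc42ep4, a gene of a BORG protein that binds septins and CDC42, was at 14225, 10712 and 11676 in the control and 8968, 7346 and 6220 in the Atp6ap2iECKO libraries. The log2 fold change was -0.71 ± 0.15 (SE, limma adjusted P = 0.0335), and the call was lost without control 1, control 3, Atp6ap2iECKO 2 or Atp6ap2iECKO 3, while the log2 fold change stayed between -0.84 and -0.58. Cdc42bpb, a kinase gene downstream of CDC42, had a log2 fold change of 0.09, and Rac1 had 0.02. Of 13 exchange factors and GTPase-activating proteins of CDC42, none was called by limma, and at an unadjusted P value below 0.05 there were 1 higher and 2 lower. Arhgap31 and Dock9, the most abundant of them, each had a log2 fold change of 0.08.

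None of 5 tested Crumbs complex genes was called by limma, and none had an unadjusted P value below 0.05. Of 10 tested partners of the Scribble module, none was called, and 1 was lower at an unadjusted P value below 0.05. Arhgef7, which encodes the exchange factor beta-PIX that binds SCRIB, and Erbin, which encodes a relative of SCRIB, had log2 fold changes of -0.03 and 0.01. Of 7 genes for PAR-5 (14-3-3) proteins, which bind phosphorylated PAR-3, none was called, and 1 was higher at an unadjusted P value below 0.05. Ywhaz and Ywhae, the most abundant of them, had log2 fold changes of 0.01 and 0.18.

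**Figure D5:**
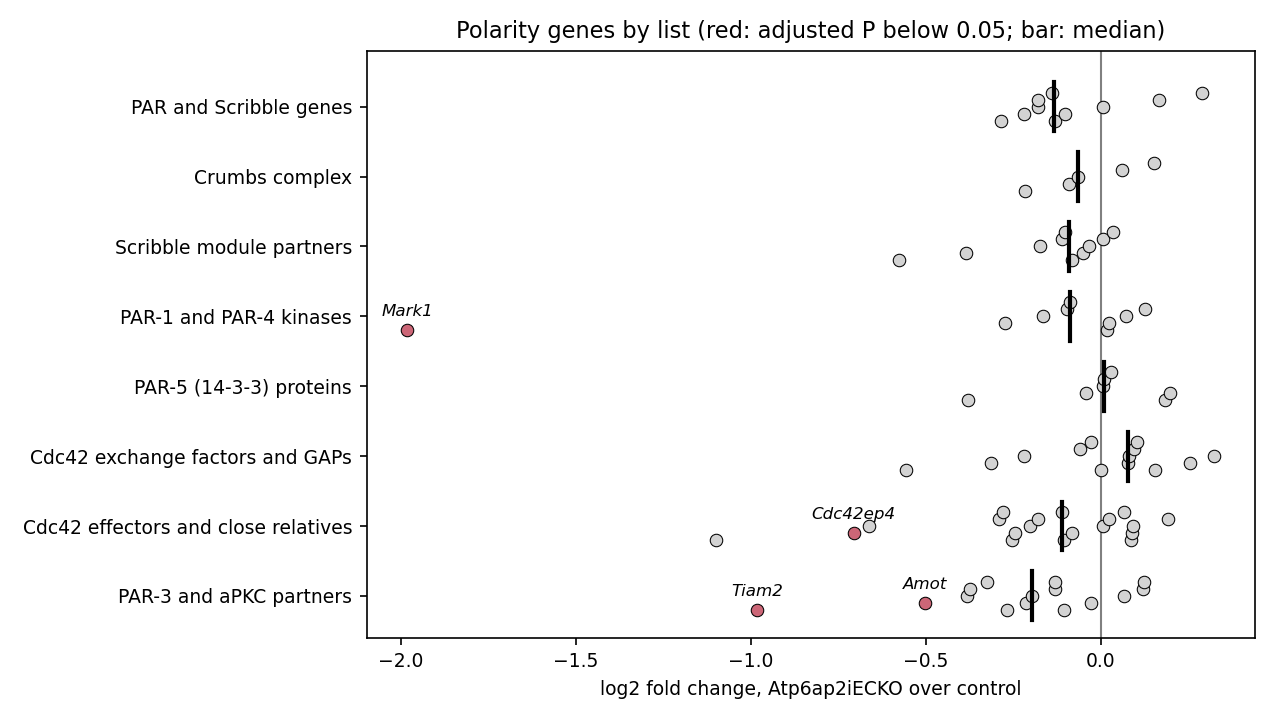
Log2 fold change, Atp6ap2iECKO over control, of each tested polarity gene by list, with 1 point per gene, a bar for the median of the list and red for an adjusted P value below 0.05. The 10 PAR and Scribble genes lie between -0.28 and 0.29, and the 4 red points are Mark1, Tiam2, Amot and Cdc42ep4, all below 0.

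The lower calls of Mark1, Tiam2, Amot and Cdc42ep4 stand beside fibroblast and mural sums that were also lower in every Atp6ap2iECKO library than in any control library. The median log2 fold changes of the tested markers were -1.56 for fibroblasts, -1.52 for mural cells, 0.00 for ECs and -0.12 for epithelium. Within the control, Tiam2 was lowest in control 1, as were the fibroblast and mural sums. Cdc42ep4 was highest in that library, and Amot was lowest in control 3. Within Atp6ap2iECKO, Tiam2 and Cdc42ep4 were highest in Atp6ap2iECKO 1, as were both sums, and Amot was highest in Atp6ap2iECKO 2. The part of cells other than ECs in the levels of the 4 genes was not tested.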

How the data were processed

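The authors prepared unstranded mRNA libraries with a TruSeq kit, aligned reads to the mm10 genome and quantified genes with BaseSpace tools. The deposited values are a signal, that is estimated counts already scaled per library: they are not whole, and the median ratio to the geometric mean was 1.0036 in all 6 libraries, although the labels call them raw. Reads could not be recovered, so the depth is unknown and no counting interval is given. The test took genes that reached 10 in 3 or more libraries, on log2(value + 1), in limma 3.58.1 (R 4.3.3). It used limma's trend option, both genotypes, no covariate and Benjamini-Hochberg adjustment over all tested genes (two-sided, threshold 0.05). Fold changes are on that scale. A count model was not used, since the values are not counts. Single shares were compared with a two-sided exact permutation test.

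Gene positions and lengths are from GENCODE M21 (GRCm38), and promoter sequences from RefSeq. The 10 genes and the lists were chosen with earlier results of these data known. Named genes were the 10 genes, Atp6ap2, other polarity genes past the threshold, the 2 of highest mean level per list, and the 3 genes most like Pard3. The Crumbs list was given by counts, apart from members named after their values were seen. Alternatives were other scalings, filters, pseudocounts, variance models, thresholds, a replicate block, a covariate for Xist and each library left out. The fit on libraries of high Xist was added after seeing the data.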

Additional observations from a re-analysis of the deposited data

How the results depend on the processing

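With 3 samples per genotype, differences below about the confidence intervals given could not be told from 0. Of the 10 polarity genes, 1 (Scrib) was called with library totals as the scaling and 1 at an adjusted P value of 0.10, and 0 in every fit that left out a library. The other polarity genes called went from 4 to 1 without the trend, 2 with the covariate for Xist, 0 at a threshold of 0.01 and 0 with libraries of high Xist only, and to 1 to 6 with a library left out. They were 1 without control 3, Atp6ap2iECKO 2 or Atp6ap2iECKO 3, and 2 without control 2. Over all tested genes, the 1193 calls became 304 without the trend, 767 with the covariate, 90 at 0.01, 1987 at 0.10, 1 with libraries of high Xist only, and 204 to 989 with a library left out, of which the lowest counts were 268 without control 3, 248 without Atp6ap2iECKO 2 and 204 without Atp6ap2iECKO 3. With high Xist only, the log2 fold change was -0.036 for Cdc42, 0.46 for Pard6b and 0.31 for Prkcz, each of the other sign. With a library left out, the ranges were -0.039 to 0.060, -0.37 to 0.39 and -0.41 to 0.25. For Atp6ap2, the adjusted P value was 0.0917 without the trend and 0.222 with high Xist only. The cause was not tested. The deviations of same-numbered samples correlated by 0.25, 0.11 and 0.078, and those of differently numbered samples by -0.21 to 0.10. What same-numbered samples shared beyond the number was not tested. With the replicate number as a block, 0 of the 10 genes, 5 other polarity genes and 1508 of all tested genes were called, and Scrib and Pard3 both had an adjusted P value of 0.0729.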
